A study of Rattus norvegicus with 2 samples.

Results

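The transcripts of 10 subunits of the nucleosome remodelling and deacetylase (NuRD) complex were examined in rat embryonic stem cells. The members were the rows of the deposited gene table with the symbols Hdac1, Hdac2, Chd4, Mta1, Mta2, Mta3, Mbd2, Mbd3, Gatad2a and Gatad2b, 10 of the 23282 genes listed. Each had 1 row. Total RNA came from the wild-type Dark Agouti line DA-EC8/Rrrc (RRRC#464) at passage 30, with a karyotype labelled as normal. The cells were untreated and grown in 2i medium, in which MEK and GSK3 are inhibited. Both libraries, replicates 1 and 2, belong to 1 group of a single line, and no conditions are contrasted. The submitters call them biological replicates without saying whether they were separate cultures, so their spread may be partly technical.

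NuRD joins a histone deacetylase activity and an ATP-dependent nucleosome remodelling activity in 1 assembly. MTA proteins form the scaffold that holds the deacetylases HDAC1 and HDAC2 and the histone-binding proteins RBBP4 and RBBP7. An MBD2 or MBD3 subunit and a GATAD2 protein connect this core to the remodelling ATPase, usually CHD4. MBD2 and MBD3 exclude each other from the complex. In mouse embryonic stem cells Mbd3-containing NuRD restrains part of the pluripotency programme and is needed for full commitment to differentiation.

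Levels are in RPKM, the reads on a gene per kilobase of its model and per 1000000 reads of the library, as deposited. This unit allows levels of different genes to be set side by side per length. Steps shared by 19.5% of the short loci tried gave approximate totals of 2991184 reads in replicate 1 and 3050685 reads in replicate 2. At these totals a gene model of 2 kb holds 5.98 reads per RPKM in replicate 1 and 6.10 in replicate 2, and 3 reads in it correspond to 0.501 and 0.492 RPKM. Totals 2 times as high would fit these loci as well, with more reads per RPKM. Counting errors below hold for the totals given. Pluripotent stem cell markers were present, with 6 of 6 at a mean of 1 RPKM or more, among them Pou5f1 at 591 and 577 RPKM. Of 9 fibroblast and feeder markers 3 reached 1 RPKM, with sums of 6.31 and 11.5 RPKM in replicates 1 and 2, and Col1a2 and Lum were listed at 0. The 3 were Col1a1 at 3.39 and 6.02 RPKM, Col3a1 at 1.32 and 3.16 RPKM and Thy1 at 1.01 and 1.73 RPKM, each higher in replicate 2. Of 5 primitive endoderm markers 1 reached 1 RPKM, Sox17 at 1.15 and 1.27 RPKM, and Gata4, Gata6 and Foxa2 were listed at 0. Trophectoderm markers reached 1 RPKM in 4 of 6 cases, with sums of 89.4 and 88.3 RPKM in replicates 1 and 2. Most of that sum was Krt18 at 61.3 and 61.1 RPKM and Eomes at 21.6 and 22.3 RPKM, and Hand1 was listed at 0. Neuroectoderm markers reached it in 2 of 4 measured, with sums of 33.6 RPKM in both replicates. Tubb3 made up most of that, at 32.4 and 32.2 RPKM, and Pax6 and Dcx were listed at 0. What other cell types add to the levels below was not tested.

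Transcripts of all 10 subunits were detected, and 9 of the 10 lay above the median of detected genes. With 1 RPKM as the minimum for the mean, 10 of 10 members passed, against 46.4% of all genes. With 10 RPKM as the minimum 9 members passed, against 29.4% of all genes. The median over members was 93.1 and 94.4 RPKM in replicates 1 and 2. Among the 10814 genes at a mean of 1 RPKM or more it was 16.8 and 16.6 RPKM. Mbd2 was the only member below that median. In bulk RNA, fewer cells that express a gene and less RNA per cell cannot be told apart. With 2 replicates of 1 group no test between groups exists, and an exact sign-flip test of a difference between 2 genes could not go below p = 0.5. Differences are therefore set against the spread between the replicates only. An error shared by both replicates, such as a wrong gene model length, does not show in that spread.

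**Figure D1:**
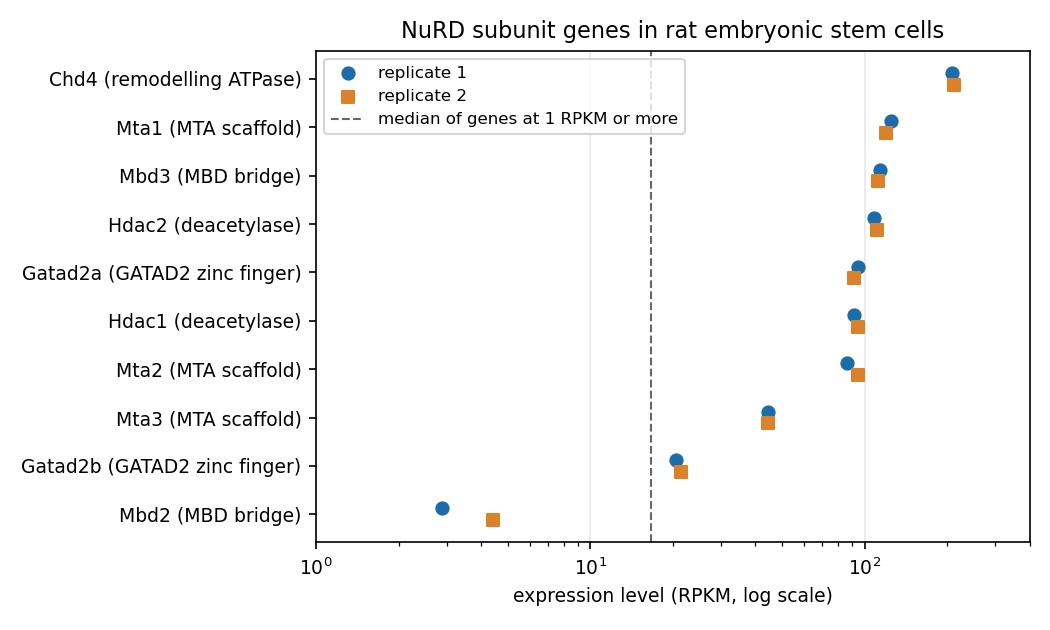
RPKM of the 10 NuRD subunit genes in each replicate on a log axis, ordered by mean level, with circles for replicate 1, squares for replicate 2 and a dashed line at the median of genes at 1 RPKM or more (16.7 RPKM). Chd4 stands highest, 6 genes lie between 86.2 and 125 RPKM, and Mbd2 lies apart below 5 RPKM.

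Chd4, the ATPase that moves nucleosomes, had the highest level of the 10. It was at 209 and 213 RPKM in replicates 1 and 2, a mean of 211 ± 2.78 RPKM (SD, n = 2), and ranked 293rd of all genes. The gene (Entrez 117535) lies on the plus strand of chromosome 4, 224629746 to 224662856, in the rn5 build that the deposited positions use. Its alternatives in NuRD were far lower. Chd3, a close relative of Chd4, was at 3.90 and 5.03 RPKM. Chd5, a relative best known from neurons and testis, was listed at 0 in replicate 1 and was at 0.0495 RPKM in replicate 2. On the log2(RPKM + 1) scale Chd4 lay above Chd3 by 5.28 ± 0.19 (SD, n = 2), a difference of 5.42 in replicate 1 and 5.15 in replicate 2. Against Chd5 the difference was 7.69 ± 0.03, which reflects the level of Chd4 and the pseudocount, since Chd5 was near 0. Chd4 made up 97.9 ± 0.35% of the summed RPKM of the 3 genes.

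Both deacetylase genes were expressed at similar levels, with Hdac2 slightly the higher. Hdac1 (Entrez 297893, chromosome 5, minus strand, 151445686 to 151472652) was at 91.6 and 94.3 RPKM in replicates 1 and 2. Hdac2 (Entrez 84577, chromosome 20, minus strand, 44811967 to 44835337) was at 108 and 111 RPKM. Values of the pair did not overlap, and in each replicate Hdac1 lay below Hdac2. The difference, Hdac1 minus Hdac2, was -0.23 ± 0.01 (log2(RPKM + 1), SD, n = 2), larger than its spread between the replicates. That spread may understate the error. In replicate 1 a gene model of 2 kb at these levels has a counting error of 4.27% for Hdac1 and 3.93% for Hdac2. No gene model length could be fitted to the values of Hdac2. Hdac1 held 45.9 ± 0.10% and Hdac2 54.1 ± 0.10% of their sum. A pair of genes described as Hdac1-like are also listed, Hdac1l at 0.168 and 0.657 RPKM and LOC679743 at 0.225 and 0 RPKM. How the authors assigned reads that match several copies is not given in the labels, so the level of Hdac1 is uncertain to that extent.

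All 3 genes of the MTA scaffold were expressed, in the order Mta1, Mta2, Mta3. Mta1 (Entrez 64520, chromosome 6, plus strand, 146918915 to 146944409) was at 125 and 120 RPKM in replicates 1 and 2, a mean of 122 ± 3.49 RPKM (SD, n = 2). Mta2 (Entrez 361724, chromosome 1, plus strand, 232078483 to 232087204) was at 86.2 and 94.5 RPKM. Mta3 (Entrez 100362346, chromosome 6, plus strand, 6857388 to 6977768) was at 44.4 and 44.6 RPKM. No values of these genes overlapped. No gene model length could be fitted to the values of Mta1 or Mta2. Their order, like that of all members, rests on the deposited RPKM alone. Mta2 minus Mta1 was -0.43 ± 0.13 (log2(RPKM + 1), SD, n = 2), Mta2 minus Mta3 was 1.00 ± 0.09, and Mta1 minus Mta3 was 1.44 ± 0.05. As shares of the summed RPKM, Mta1 made up 47.6 ± 1.83%, Mta2 35.1 ± 1.94% and Mta3 17.3 ± 0.11%. The gap between Mta2 and Mta1 differed most between the replicates among the 3 differences, at -0.53 in replicate 1 and -0.34 in replicate 2. An MTA2-like gene, LOC689534, had 0.0583 RPKM in replicate 1 and a listed 0 in replicate 2.

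Of the exclusive pair Mbd3 and Mbd2, nearly all RPKM belonged to Mbd3. Mbd3, whose product has a methyl-CpG-binding domain with little preference for methylated DNA, was at 114 and 112 RPKM in replicates 1 and 2, a mean of 113 ± 1.44 RPKM (SD, n = 2). It lies at chromosome 7, plus strand, 12349101 to 12356303 (Entrez 362834). Mbd2, whose product binds methylated CpG sites, was at 2.87 and 4.42 RPKM in replicates 1 and 2, a mean of 3.64 ± 1.1 RPKM. Its locus is on chromosome 18, plus strand, 64990480 to 65060941 (Entrez 680172). Mbd3 was 39.8 times as high as Mbd2 in replicate 1 and 25.4 times in replicate 2. The difference of 4.64 ± 0.36 (log2(RPKM + 1), SD, n = 2) exceeded the spread between the replicates. Mbd3 held 96.9 ± 0.95% of the sum. The genes annotated as Mbd3-like, Mbd3l1, Mbd3l3, LOC100363016 and LOC690404, were listed at 0 in both replicates.

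The GATAD2 pair was also uneven, though less so. Gatad2a (Entrez 290669, chromosome 16, plus strand, 21093916 to 21184110) was at 94.5 and 91.7 RPKM in replicates 1 and 2. Gatad2b (Entrez 310614, chromosome 2, plus strand, 209087998 to 209163194) was at 20.6 and 21.5 RPKM. Their products are zinc finger proteins that bind the MBD subunit and contact CHD4. Gatad2a lay above Gatad2b by 2.09 ± 0.07 (log2(RPKM + 1), SD, n = 2), at 4.58 times its RPKM in replicate 1 and 4.27 times in replicate 2. It held 81.6 ± 0.75% of the sum, and Gatad2b 18.4 ± 0.75%.

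**Figure D2:**
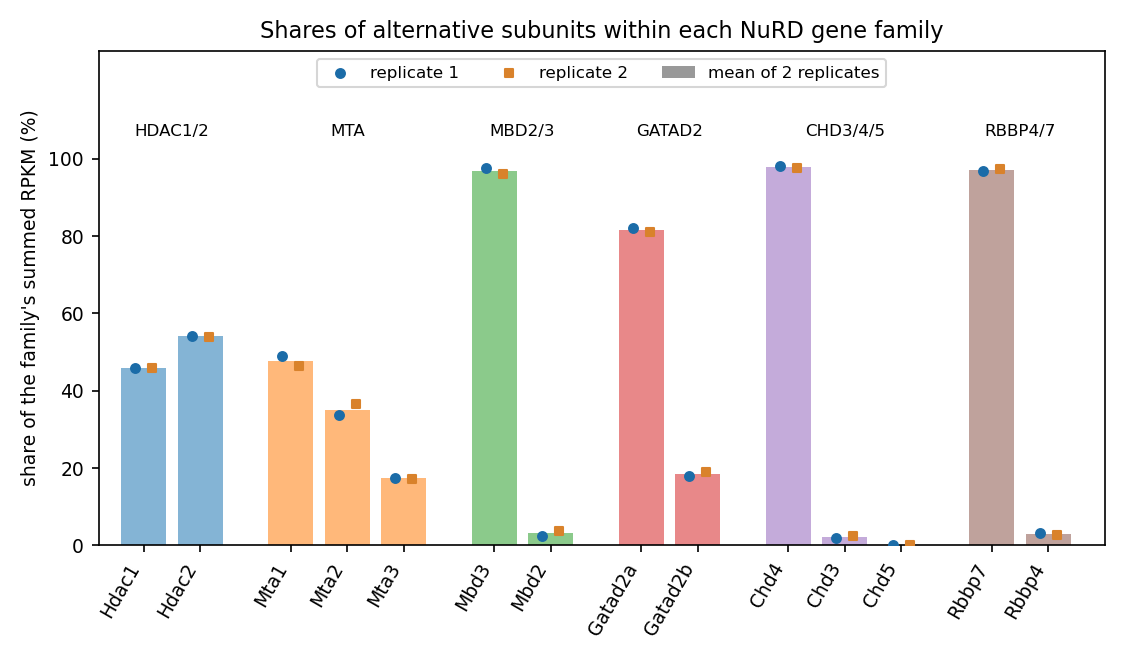
Share of each gene in the summed RPKM of its NuRD family, as bars for the mean of 2 replicates with circles for replicate 1 and squares for replicate 2. Chd4, Mbd3 and Rbbp7 each hold over 96% of their family in both replicates, the GATAD2 pair is split 81.6% to 18.4%, and the deacetylase and MTA families are shared out more evenly.

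In the order of all 10 levels, 7 of the neighbouring pairs had replicate values that did not overlap. The exceptions were Gatad2a with Hdac1, whose means of 93.1 and 93.0 RPKM differed by less than the spread between the replicates, and Hdac1 with Mta2 at 93.0 and 90.4 RPKM. Mbd3 and Hdac2, next to each other at 113 and 109 RPKM, did not overlap, but a gene model of 2 kb at these levels has a counting error of 3.83% and 3.93% in replicate 1. The order of neighbours this close is within counting error at that length. The widest step lay between Gatad2b, at 21.0 RPKM, and Mbd2, a ratio of means of 5.77.

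Summed over alternative subunits, the families stood at different levels, apart from the MBD and GATAD2 pairs, which were close. The RBBP pair summed to 459 and 448 RPKM in replicates 1 and 2. The MTA genes summed to 255 and 259 RPKM, the CHD genes to 213 and 218 RPKM and the deacetylase pair to 200 and 205 RPKM. The MBD pair, at 117 RPKM in both, and the GATAD2 pair, at 115 and 113 RPKM, were lower. The replicate values of no family overlapped those of another. In replicate 1 a gene model of 2 kb has a counting error of 3.83% at the level of Mbd3 and 4.21% at that of Gatad2a. The order of the MBD and GATAD2 pairs is within counting error at that length. These are transcript levels, and the amounts of the proteins were not measured.

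Replicates differed little for 9 of the members. Their RPKM values lay within 10% of each other, the widest being Mta2 at 86.2 and 94.5 RPKM in replicates 1 and 2. Of the 4721 genes at the level of Gatad2b or higher, 72.3% lay within 10%. Of the members 3 were higher in replicate 1, Mta1, Mbd3 and Gatad2a, and 7 in replicate 2, where 54.1% of genes at 1 RPKM or more were higher in replicate 1. None of the 10 differed by over 1.5-fold on the RPKM + 1 scale, against 4.26% of the genes at 1 RPKM or more. With a pseudocount of 0.1 in place of 1, 1 member did, Mbd2. Mbd2 differed by -0.49 (log2(RPKM + 1), replicate 1 minus replicate 2), and 16.6% of the 1865 genes at a mean of 2 to 6 RPKM lay as far apart or farther. The values of Mbd2 come out as 7 reads in replicate 1 and 11 in replicate 2 in a gene model of 816 bases, or as the same whole multiple of both in a longer one. At 7 and 11 reads the ratio of replicate 1 to replicate 2 of 0.649 has an exact 95% interval of 0.213 to 1.83, which covers counting error only. This interval includes equal levels, and a multiple of these reads would narrow it. It takes each read as independent, and would be wider if both reads of a pair were counted. Some rows of the table gave multiples of 0.5 reads and not whole reads at these totals, so these reads and the interval are approximate.

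**Figure D3:**
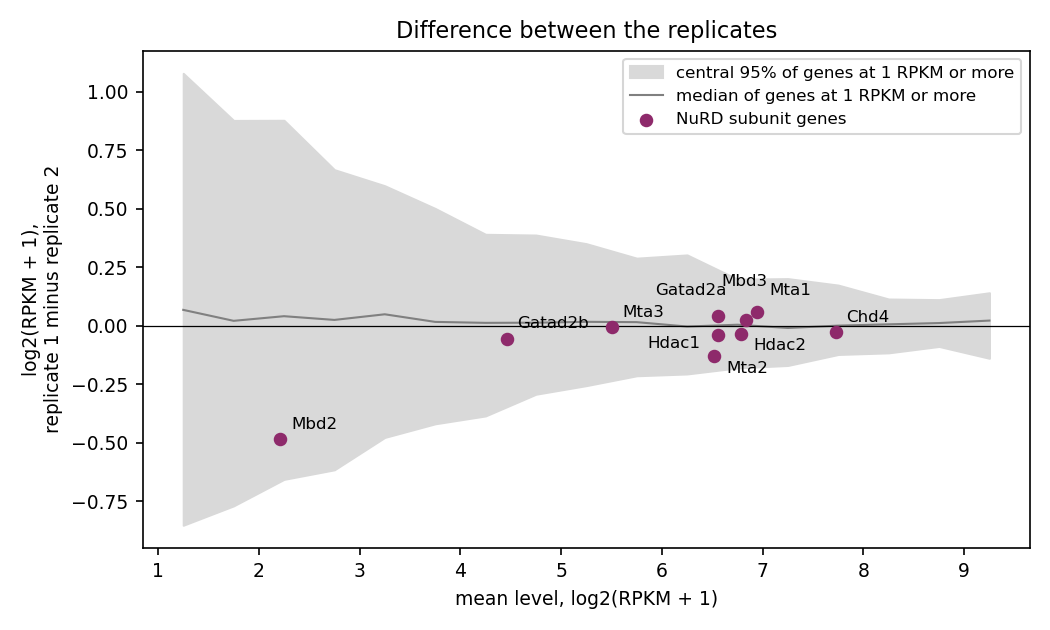
Difference between the replicates, log2(RPKM + 1) of replicate 1 minus replicate 2, against the mean level for the 10 NuRD subunit genes, over a grey band that holds the central 95% of genes at 1 RPKM or more in each level bin. All 10 points lie inside the band, Mbd2 at -0.49 and the others between -0.13 and 0.06.

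The members lie on 9 chromosomes, with Mta1 and Mta3 both on chromosome 6. Their loci span from 7203 bases for Mbd3 to 120381 bases for Mta3. None of the 10 loci overlaps the locus of another listed gene. Promoter sequence was available for 9 of the 10 members from RefSeq on the GRCr8 build, matched by gene identifier. Mta3 had no entry. In the 250 bases before the start given there, the members held a median of 23 CpG sites and a GC content of 68.8%. Among promoters of 9860 genes at 1 RPKM or more the medians were 17 CpG sites and 60.4%, and among all 33469 promoters 5 CpG sites and 51.2%. Mta1 had the most CpG sites of the members, 47, and Gatad2b the fewest, 10.

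The promoters of the pairs with the most uneven members are shown, Mbd3 with Mbd2 and Gatad2a with Gatad2b, 5′ to 3′ and upstream of the start only. Capitals mark the GC box GGGCGG, the letters bound by Sp1-type factors, and the CCAAT box CCAAT, each on either strand (CCGCCC and ATTGG). Adjacent copies of the GC box can overlap. On the plus strand of GRCr8 the windows are chr7:9963390-9963639 for Mbd3, chr18:66449108-66449357 for Mbd2, chr16:19463250-19463499 for Gatad2a and chr2:178046786-178047035 for Gatad2b.
Mbd3: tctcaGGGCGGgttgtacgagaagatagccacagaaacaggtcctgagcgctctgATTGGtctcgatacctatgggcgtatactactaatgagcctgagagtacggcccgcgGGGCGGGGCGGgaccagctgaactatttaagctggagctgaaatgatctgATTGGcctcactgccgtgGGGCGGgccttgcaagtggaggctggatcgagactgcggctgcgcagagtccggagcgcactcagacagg
Mbd2: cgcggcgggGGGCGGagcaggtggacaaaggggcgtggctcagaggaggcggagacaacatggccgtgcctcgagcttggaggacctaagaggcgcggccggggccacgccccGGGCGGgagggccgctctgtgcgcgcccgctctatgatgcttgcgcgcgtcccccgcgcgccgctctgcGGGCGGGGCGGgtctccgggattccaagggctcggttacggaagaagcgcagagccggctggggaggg
Gatad2a: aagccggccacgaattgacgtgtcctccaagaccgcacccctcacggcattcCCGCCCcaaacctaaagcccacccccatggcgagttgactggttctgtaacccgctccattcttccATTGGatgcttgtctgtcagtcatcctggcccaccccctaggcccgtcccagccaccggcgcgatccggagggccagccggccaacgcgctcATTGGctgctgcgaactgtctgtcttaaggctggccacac
Gatad2b: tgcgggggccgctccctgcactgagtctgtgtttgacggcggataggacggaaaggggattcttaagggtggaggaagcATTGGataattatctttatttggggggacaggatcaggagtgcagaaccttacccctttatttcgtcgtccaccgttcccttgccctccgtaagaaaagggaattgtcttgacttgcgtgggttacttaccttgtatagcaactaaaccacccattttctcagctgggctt

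Mbd2, the lowest member, had 33 CpG sites and Mbd3 17, and Gatad2a 17 and Gatad2b 10, so the gene with more CpG sites had the lower level in the first pair and the higher level in the second. The GC box was found in 8 of the 9 members, all but Gatad2b, against 59.7% of promoters of genes at 1 RPKM or more and 30.5% of all promoters. The CCAAT box was found in 5 of 9, Chd4, Hdac1, Gatad2a, Gatad2b and Mbd3, against 35.8% and 34%. The TATA box TATAAA (or TTTATA on the other strand) was found in none of the 9, against 5.92% and 12.9%. These matches describe letters in the window, and which starts the cells used was not measured.

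Other subunits of NuRD were examined as a list of 5, of which 4 reached 1 RPKM and 3 reached 10 RPKM, with a median of 13.1 ± 2.55 RPKM (SD, n = 2). Rbbp7, a histone-binding WD40 protein gene, was at 445 and 436 RPKM in replicates 1 and 2, above every one of the 10 members. Its relative Rbbp4 was at 14.9 and 11.3 RPKM, so Rbbp7 held 97.1 ± 0.51% of their sum. A copy similar to Rbbp4, RGD1563620, was listed at 0 in replicate 1 and at 0.255 RPKM in replicate 2, and how reads were split between the copies is not given. Cdk2ap1, which encodes a small protein found with NuRD, was at 140 and 135 RPKM.

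HDAC1 and HDAC2 also serve the Sin3, CoREST and MiDAC complexes, whose genes were detected as well. Of 13 Sin3 complex genes 10 reached 1 RPKM and 7 reached 10 RPKM, with a median of 11.1 ± 1.00 RPKM. The scaffold genes Sin3b and Sin3a were at means of 125 and 80.3 ± 6.33 RPKM, Sin3b with 117 and 133 RPKM, followed by Suds3 at 60.6 ± 0.09 RPKM, and Brms1 was listed at 0. Of 6 CoREST and LSD1 genes 5 reached 1 RPKM, with a median of 9.19 ± 0.84 RPKM. Kdm1a, the histone demethylase LSD1, led them at 150.4 ± 1.07 RPKM, followed by the scaffold gene Rcor1 at 26.1 ± 0.05 RPKM and Hmg20b at 11.6 ± 1.42 RPKM, with Rcor2 lowest at 0.0677 and 0.0735 RPKM. All 5 genes of the MiDAC and MIER assemblies reached 10 RPKM, with a median of 30.3 ± 1.26 RPKM. Dnttip1 was highest at 58.6 and 61.3 RPKM, before Mier2 at 33.3 ± 3.68 RPKM and Elmsan1 at 30.3 ± 1.26 RPKM, with Mier3 lowest at 23.1 and 21.2 RPKM. Among the scaffold genes of these complexes Mta1 at 122 RPKM and Sin3b at 125 RPKM were close, with replicate values that overlapped.

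Hdac1 and Hdac2 stood above the other zinc-dependent deacetylase genes. Of 9 such genes 6 reached 1 RPKM and 3 reached 10 RPKM, with a median of 4.92 ± 0.23 RPKM. Hdac3, the deacetylase of the NCoR and SMRT complexes, was highest at 40.1 and 37.5 RPKM in replicates 1 and 2. Hdac5 was at 23.7 ± 0.32 RPKM and Hdac4 at 13.6 ± 1.98 RPKM, while Hdac6, Hdac8 and Hdac9 were listed at 0 in both. Genes listed at 0 may still have been transcribed. The opposing lysine acetyltransferase genes all reached 1 RPKM, 9 of 9, with a median of 31.6 ± 0.92 RPKM. Kat7 was at 59.0 ± 2.45 RPKM, Kat2a at 49.6 ± 1.76 RPKM and Kat8 at 46.5 ± 3.08 RPKM, with Crebbp lowest at 7.44 ± 0.81 RPKM.

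Mbd3 also stood above Mbd6, Mbd1 and Mbd4, other genes with a methyl-CpG-binding domain, and Mbd2 below them. All 3 of these reached 10 RPKM, with a median of 19.0 ± 1.02 RPKM. Mbd6 was at 29.6 and 27.5 RPKM in replicates 1 and 2, and Mbd1 at 19.7 and 18.3 RPKM. Mbd4, the lowest at 12.7 and 9.88 RPKM, was above both values of Mbd2. Mbd5 was not analysed here.

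DNA-binding factors chosen as recruiters or partners of NuRD were uneven. Of 12 genes 10 reached 1 RPKM and 4 reached 10 RPKM, with a median of 5.02 ± 0.71 RPKM. Sall4, a zinc finger factor that binds NuRD through a short motif at its start and is high in mouse embryonic stem cells, was at 119 and 127 RPKM in replicates 1 and 2. It is listed under the placeholder symbol LOC686412 and was matched through its RefSeq gene identifier. Its relative Sall1 was at 41.6 ± 2.96 RPKM and Zfp219 at 35.4 ± 3.34 RPKM. Zfpm2 and Ikzf1, factors of heart and blood cells, were listed at 0. Genes linked to Mbd3 or NuRD in mouse embryonic stem cells were examined as a list of 8, of which 7 reached 1 RPKM and 4 reached 10 RPKM, with a median of 24.7 ± 0.16 RPKM. Zfp42 was at 121 and 103 RPKM in replicates 1 and 2, matched through the RefSeq identifier of LOC100361947, and Klf5 and Pramel6 were at 75.9 ± 1.41 and 51.9 ± 5.66 RPKM. Pramel7 was listed at 0. Whether NuRD acts on these genes in the rat cells was not tested.

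**Figure D4:**
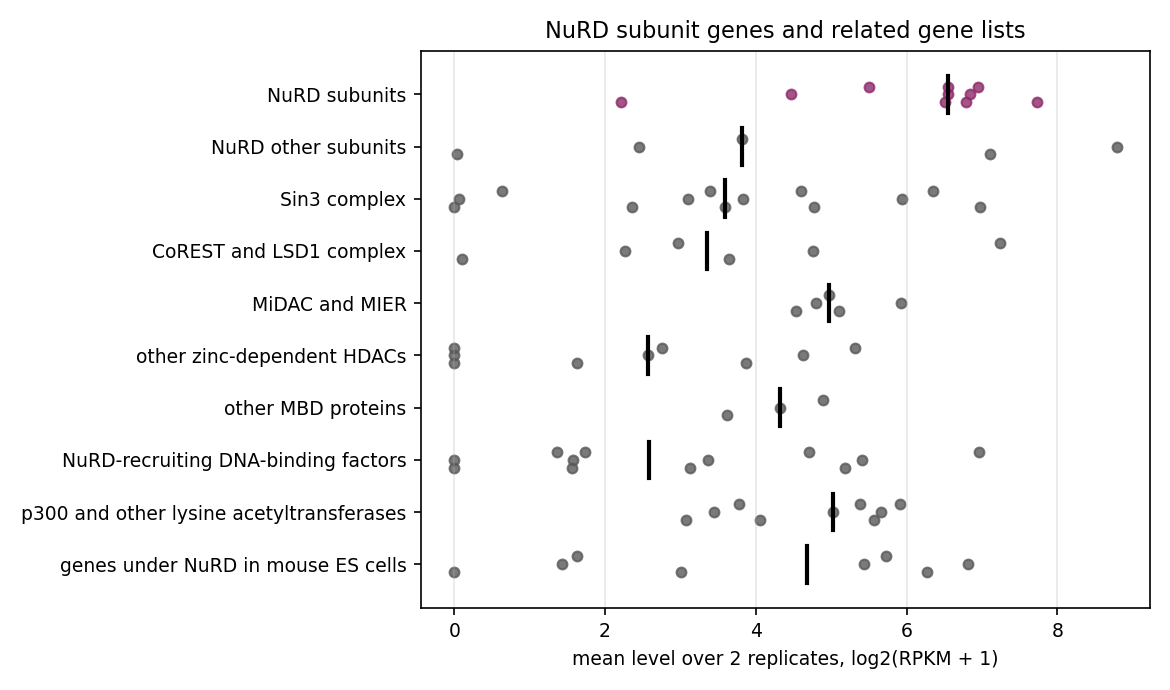
Mean level over 2 replicates, log2(RPKM + 1), of each NuRD subunit gene (top row) and of each measured gene in 9 related lists, with a black bar at each median. The NuRD subunits have the highest median, while Rbbp7, the rightmost point, belongs to the other NuRD subunits, and several lists have members at 0.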

How the data were processed

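RNA sequencing was done on 2 libraries of total RNA from 1 wild-type group, with paired 50-bp reads. RPKM values of protein-coding genes, computed by the authors, were deposited as 1 table with rn5 positions. TopHat 1.4.0, CASAVA 1.8 and the builds Rnor_5.0 and rn5 are named in the submitters' processing notes. How reads were counted, whether strand was used and what was done with multi-mapping reads is not given in the sources used here.

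Rows of the same Entrez identifier were summed. Count models were not run, since RPKM values are normalized. Levels of genes are means ± SD over 2 replicates, and differences use log2(RPKM + 1), which understates differences of low genes. The median of a list is that of its genes' means. Its SD is that of the medians of the 2 replicates, which can fall on different genes. Read totals are those on which the most loci under 6000 bp agreed, with the locus taken as the gene model and low read numbers assumed. They were then refined only among neighbouring totals, by the number of loci that gave whole reads. That number was 527 of 2700 rows in replicate 1 and 525 of 2688 in replicate 2, 19.5% of each (relative tolerance 3e-07). The other rows did not give whole reads. A further 40 rows in replicate 1 and 27 in replicate 2 gave multiples of 0.5 reads but not whole reads. At totals 2 times as high these rows would give whole reads too, with more reads per RPKM and smaller counting errors. The unit of 1 read, the totals and the reads behind a member are therefore approximate. Whole reads could be fitted for 7 of the 10 members, all but Mta1, Mta2 and Hdac2. Of 71 genes in the related lists, 63 matched by symbol, 7 through RefSeq (GRCr8) and 1 had no row. A further gene first listed is not reported here, and the list's counts and median are without it.

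The members and lists were chosen with earlier results of these data known. All 10 members are named, and of each list the 3 highest, the lowest and those listed at 0. No gene was sought for a similar pattern, since 2 replicates of 1 condition give none. The recovery of read totals, of reads per gene and of fold changes was tested on simulated libraries. These held whole reads only, unlike some rows of the deposited data. Tools were pandas 2.3.3, numpy 2.4.6, matplotlib 3.10.9 and scipy 1.17.1 under Python 3.11.15.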

Additional observations from a re-analysis of the deposited data

How the results depend on the processing

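The count of members at 1 RPKM stayed at 10 with a minimum of 0.3 or 3 RPKM. This count and that at 10 RPKM did not move with either replicate left out or with replicate 2 centred on replicate 1. They also did not move with the highest row per gene or libraries rescaled to a sum of 1000000. For the minimum of 0.3 RPKM, the highest row and the rescaled libraries no member could be lost. Each member has 1 row, and rescaling raised every level. None of the 8 differences between genes changed sign under the 6 alternatives run on them, which was fixed in advance. Each difference had the same sign in both replicates, so leaving out either could not reverse it. The highest row gave the same differences, and rescaling, centring or another pseudocount keeps the order of genes within a replicate. A pseudocount of 0.1 gave 5.54 for Chd4 minus Chd3 and 10.75 for Chd4 minus Chd5, and the rescaled libraries gave 8.84 for Chd4 minus Chd5. The number of members over 1.5-fold apart between the replicates was 1 in place of 0 with a pseudocount of 0.1 and with the lower fold limit listed as an alternative. With a minimum of 10 RPKM the share of all genes over 1.5-fold apart was 0.657%. Rescaling multiplies every level, giving 482 for Chd4 and 8.34 for Mbd2, and leaves the order. No paired analysis was possible because the series has 1 group. Depth limits Mbd2: at 7 and 11 reads, the fewest whole reads that fit its values, the counting error is 37.8% in replicate 1 and 30.2% in replicate 2, and a longer gene model would have more reads and a smaller error.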

Other observations

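The deposited annotation column assigns the gene ontology term for the NuRD complex to 17 genes, a list looked up after the values were seen. It holds 8 of the 10 members, all but Mbd2 and Gatad2b, and 9 other genes. Among these others Rbbp7 was followed by Csnk2a1, a catalytic subunit gene of casein kinase II, at 289 and 274 RPKM in replicates 1 and 2. The adaptor genes Appl1 and Appl2 were at 14.9 ± 0.44 and 6.76 ± 0.65 RPKM (SD, n = 2), and Sall2 at 2.33 ± 0.28 RPKM.

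Relatives of the members that the table lists as paralogs, also looked up after the values were seen, reached 1 RPKM in 8 of 15 cases that are not members, 53.3%, against 46.4% of all genes. Hdac8, Atn1, Mbd3l1, Mbd3l3 and LOC100363016 were listed at 0 in both replicates, and Hdac1l and Chd5 lay under 1 RPKM. The remodelling ATPase genes Chd1 and Chd2 were at 58.2 and 53.1 RPKM, Chd6 at 30.5 RPKM, Chd8 at 21.6 RPKM and Chd9 at 12.1 RPKM, all below Chd4 and above Chd3. Rere, listed as a paralog of the MTA genes, was at 41.2 and 40.8 RPKM in replicates 1 and 2, just below Mta3.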
